A study of Mus musculus with 15 samples.

Results

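The mitochondrial ribosomal protein genes were taken as the rows of the count table whose Ensembl identifier belongs, in the GRCm38 annotation (GENCODE release M21), to a protein-coding gene with a symbol made of *Mrpl* or *Mrps* and a number. The rule gave 78 of the 30672 genes in the table, of which 77 passed the filter on low counts that left 15533 genes for testing. *Mrpl53* did not pass, and 4 pseudogenes with such symbols were left out. RNA was sequenced from the tibialis anterior, a fast muscle of the lower hindlimb, of male 129Pas mice aged 7 weeks. The 15 libraries fall into 4 groups, wild-type mice without drug (WT_CTL, n = 4), wild-type mice given tamoxifen (WT_TAM, n = 4), *Mtm1*-/y mice without drug (KO_CTL, n = 4) and *Mtm1*-/y mice given tamoxifen (KO_TAM, n = 3). *Mtm1*, on the X chromosome, encodes the phosphoinositide phosphatase myotubularin and the labels give the mutants as *Mtm1*-/y, males without a working copy. The series asks how tamoxifen, a modulator of oestrogen receptors, bears on the muscle transcriptome in this mouse model of X-linked myotubular myopathy. The labels number the libraries within a group and do not state that each came from a different mouse, so the p-values measure the spread between these libraries.

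Mitochondria keep a small genome of their own, and a ribosome dedicated to it makes the core membrane subunits of the respiratory chain and of ATP synthase. Its RNA is made in the mitochondrion, but all its proteins are encoded in the nucleus, translated in the cytosol and imported. The small subunit reads the messenger RNA and the large subunit joins the amino acids. Some of the proteins have a counterpart in bacterial ribosomes and others were added in the mitochondrial lineage. In skeletal muscle, where contraction draws on oxidative metabolism, the output of this ribosome has to match that of the nuclear genes for the same complexes.

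Total counts were 18042558 to 45823277 per library, and the members held 0.218% to 0.321% of them. *Mtm1* itself measured 14.9 to 15.6 CPM (counts scaled to a common library size with TMM factors) in WT_CTL, 13.5 to 17.7 in WT_TAM, 2.91 to 3.63 in KO_CTL and 3.04 to 3.71 in KO_TAM, so every library had the level its label calls for. WT_TAM replicate 1 and KO_CTL replicate 1 stood apart in the members. The first had the lowest value of its group in 68 of 77 members and the second in 52 of 77. The matching counts over all tested genes were not taken, so these are not shown to be particular to the members. WT_TAM replicate 1 also had the highest sum of its group for 10 slow and oxidative myofibre markers (8076 CPM, group median 5843), 10 adipocyte markers (10890, median 5431), 8 Schwann cell markers (214, median 119) and 8 fibroblast markers (5146, median 1787). Counts, medians and called members that changed without either library are given with that value below, where the alternatives were read for that member. No marker of any list had 0 counts in all 15 libraries.

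The labelled tissue was checked with 10 fast myofibre markers, which were all present and summed to 184900 to 299600 CPM in all 15 libraries. Between KO_CTL and WT_CTL 15.5% of all tested genes rose and 14.9% fell, and list counts are to be read against these shares. Of the 10 fast myofibre markers 2 fell (median log2 fold change -0.25). Of 8 endothelial markers 7 fell (median -0.74), from 577 to 712 CPM in WT_CTL and 426 to 686 in WT_TAM to 342 to 399 in KO_CTL and 311 to 411 in KO_TAM. Of 10 macrophage markers 2 rose (median 0.60, 28.4 to 51.9 CPM in WT_CTL, 41.5 to 64.1 in WT_TAM, 34.2 to 89.3 in KO_CTL, 64.5 to 113 in KO_TAM). Of 10 adipocyte markers 2 rose and 0 fell, while the log2 fold changes of the other 8 were below 0 (median -0.74, 3370 to 4210, 4301 to 10890, 1882 to 4963 and 1323 to 2279 CPM in the same order). Of 10 slow and oxidative markers 1 fell and 0 rose, while 6 had log2 fold changes above 0 (median 0.34, 3754 to 5222, 3728 to 8076, 3442 to 3909 and 4853 to 5100 CPM). Of 8 Schwann cell markers 2 rose (median 0.19, 88.7 to 126, 81.5 to 214, 115 to 156 and 102 to 133 CPM), and of 8 fibroblast markers 1 rose (median -0.09, 1315 to 1649, 917 to 5146, 371 to 2052 and 1033 to 2403 CPM). Of 5 tested blood markers 0 were called by edgeR (median -0.68, 69.03 to 96.3, 80.7 to 198, 14.9 to 66.5 and 46.7 to 115 CPM). In such bulk samples fewer cells of a type and less RNA per cell cannot be told apart. The part of these shifts in the members' differences was not tested.

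In wild-type muscle without drug the members spanned a wide range of levels. Scaled to the length of their exons and to a common total (TPM, mean ± SD over the 4 WT_CTL libraries), the highest was *Mrpl12* with 211 ± 20.9, the protein of the flexible stalk that recruits translation factors to the large subunit. *Mrps23* followed with 147 ± 12.2, *Mrpl2* with 140.0 ± 9.76, *Mrpl18* with 138 ± 5.87 and *Mrps28* with 126 ± 3.18. The gap between *Mrpl12* and *Mrps23* (64.0 TPM) was larger than their combined SD, and so was that between *Mrpl18* and *Mrps28* (12.3 TPM). *Mrps23* and *Mrpl2*, and *Mrpl2* and *Mrpl18*, did not differ beyond it. These 5 members held 23.0% of the members' summed TPM, and 51 of the 78 lay within a factor of 10 of *Mrpl12*.

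At the low end stood *Mrpl48* with 7.62 ± 0.66 TPM, *Mrps33* with 6.63 ± 0.87, *Mrps36* with 3.37 ± 0.83 and *Mrpl23* with 0.88 ± 0.07. *Mrps36* is a subunit of the 2-oxoglutarate dehydrogenase complex in spite of its ribosomal name. *Mrpl53* had 0 counts in all 4 WT_CTL libraries and at most 4 counts in any library, and a count of 0 allows up to 3. It shares exons on the same strand with *Gm42688*, which had 16 to 49 counts, and how reads on both were counted is not known, so its level is uncertain. *Mrpl48* and *Mrpl23* have annotated pseudogene copies (*Mrpl48-ps*, 63 to 149 counts against 446 to 1189 for *Mrpl48*, and *Mrpl23-ps1*, 3 to 16 against 34 to 78), so their counts are uncertain in the same way. With the length of the longest transcript in place of all exons, 7 of these 10 levels moved by more than their SD. *Mrps28* then went from 126 to 103 TPM and from rank 5 to rank 9, and *Mrpl48* from 7.62 to 11.9 TPM and out of the 5 lowest, so the order depends on the length used.

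The median level was 42.3 TPM over the 51 large-subunit members and 21.8 TPM over the 26 small-subunit members in WT_CTL. The spread between the 4 WT_CTL libraries was small for most members, with a median coefficient of variation of 6.35% over the 77 tested (1.76% to 23.5%).

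As TMM-scaled CPM the summed level of the members did not separate the genotypes without drug. It was 2961, 2686, 2887 and 2701 CPM in WT_CTL, 2188, 2736, 2780 and 2869 in WT_TAM, 2429, 2896, 2955 and 2762 in KO_CTL and 2917, 2965 and 2871 in KO_TAM. All 4 groups overlapped except that the 3 KO_TAM libraries all lay above the 4 WT_TAM libraries, with 2871 CPM for the lowest KO_TAM and 2869 for the highest WT_TAM. As a share of all counts, without scaling, the members took 0.251% to 0.286% in WT_CTL, 0.218% to 0.270% in WT_TAM, 0.266% to 0.311% in KO_CTL and 0.305% to 0.321% in KO_TAM. As TPM, which carries no TMM factor, the sum did separate the genotypes. It was 3129 to 3531 in WT_CTL, 2898 to 3406 in WT_TAM, 3622 to 4202 in KO_CTL and 3961 to 4202 in KO_TAM. Every mutant library thus lay above every wild-type library on that scale. The TMM factors were 0.89 to 0.99 in WT_CTL and 0.96 to 1.09 in KO_CTL. Without them the median log2 fold change of all tested genes between KO_CTL and WT_CTL moved from 0.00 to 0.15 and that of the members from -0.05 to 0.10, so the sign of the members' median depends on the scaling. With upper-quartile factors these medians were -0.10 for the members and -0.05 for all genes, and without KO_CTL replicate 1 they were -0.01 and -0.02. Fold changes below are on the TMM scale.

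**Figure D1:**
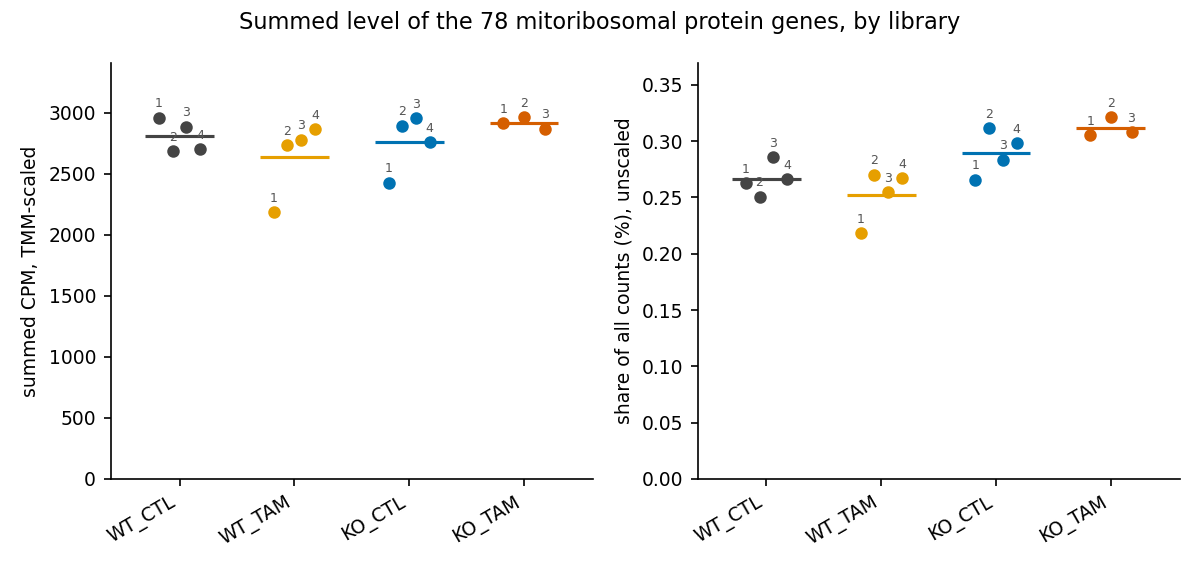
Summed level of the 78 members in each library (points, numbered by replicate) with the group mean (line), as TMM-scaled CPM on the left and as the unscaled share of all counts on the right. WT_TAM replicate 1 (2188 CPM) and KO_CTL replicate 1 (2429 CPM) are the lowest of their groups on both scales, and the KO_TAM libraries (0.305% to 0.321%) are the highest group as a share of counts.

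Loss of *Mtm1* without drug changed single members in both directions and left the family as a whole near the median of all genes. Between KO_CTL and WT_CTL, 11 of 77 members rose (14.3%, against 15.5% of all tested genes) and 5 fell (6.49%, against 14.9%), at an edgeR adjusted p under 0.05. The median log2 fold change of the members was -0.05 (quartiles -0.21 and 0.17), and that of all tested genes 0.00 (-0.33 to 0.32). The share of risers was near that of the whole table. The values of the 2 groups did not overlap for 15 members, 10 of them above in KO_CTL (13.0%, against 14.8% of all tested genes) and 5 below (6.49%, against 15.7%). With upper-quartile factors the split of calls was 9 higher and 12 lower, and without scaling factors 21 higher and 1 lower. The calls over all tested genes were 4802 and 5081 in these fits, against 4727 in the main fit.

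The largest rise was that of *Mrpl57*, one of the smallest proteins of the large subunit, with no bacterial counterpart. It measured 13.0, 12.1, 11.7 and 10.6 CPM in WT_CTL and 21.9, 25.2, 14.9 and 17.8 in KO_CTL. Every KO_CTL library was above every WT_CTL library, with KO_CTL replicate 3 the lowest of them. The log2 fold change was 0.75 ± 0.14 (SE; 1.68-fold, edgeR adjusted p = 0.000917). *Mrpl52*, another large-subunit protein without a bacterial counterpart, measured 15.9, 13.2, 14.8 and 11.7 CPM in WT_CTL against 19.0, 29.3, 21.3 and 23.2 in KO_CTL, again without overlap, a log2 fold change of 0.74 ± 0.12 (1.67-fold, edgeR adjusted p = 0.000557).

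*Mrps34*, a protein of the small subunit specific to mitochondria, rose from 20.6, 16.6, 19.2 and 18.6 CPM to 28.4, 33.1, 25.9 and 26.1. The groups lay apart and the log2 fold change was 0.60 ± 0.10 (edgeR adjusted p = 0.000557). *Mrps34* shares exons with *Nme3* on the same strand, which had at most 3 counts in any library. *Mrpl33*, counterpart of a small bacterial large-subunit protein, had the highest level of the risers and went from 63.2, 67.8, 77.1 and 71.4 CPM to 93.9, 105, 85.2 and 98.6, a log2 fold change of 0.45 ± 0.09 (edgeR adjusted p = 0.00247).

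Another 4 large-subunit members rose with no overlap between the groups. *Mrpl54*, specific to mitochondria, went from 25.8 to 30.8 CPM in WT_CTL to 32.7 to 49.7 in KO_CTL, a log2 fold change of 0.48 ± 0.11 (edgeR adjusted p = 0.00586). *Mrpl20*, whose bacterial counterpart acts early in the assembly of the large subunit, went from 25.01 to 32.0 CPM to 34.4 to 43.0 (0.46 ± 0.13, edgeR adjusted p = 0.0122). *Mrpl43* went from 24.6 to 29.2 CPM to 34.3 to 38.1 (0.44 ± 0.08, edgeR adjusted p = 0.00129), and *Mrpl17*, whose bacterial counterpart lies near the exit of the nascent chain, from 30.3 to 36.7 to 39.0 to 48.2 (0.35 ± 0.08, edgeR adjusted p = 0.00581). These 8 members were called in all 26 alternative fits, and none of them when an absolute log2 fold change over 1 was also required.

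The remaining 3 calls were smaller. *Mrps21* and *Mrps15*, both small-subunit proteins with bacterial counterparts, rose by 0.34 ± 0.12 and 0.31 ± 0.11 on the log2 scale (edgeR adjusted p = 0.045 and 0.0392) with overlapping groups, since KO_CTL replicate 1 lay at 26.3 and 32.7 CPM, within the WT_CTL range of 22.9 to 29.97 and 29.9 to 34.1. They were lost in 15 and 12 of the 26 alternatives, and without KO_CTL replicate 2 *Mrps15* had 0.18 (edgeR adjusted p = 0.129). *Mrpl40*, named because it is the last of the 11 calls and chosen after its values were seen, belongs to the central protuberance of the large subunit and went from 15.4 to 17.8 CPM to 19.5 to 21.5 (0.29 ± 0.08, edgeR adjusted p = 0.0163).

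**Figure D2:**
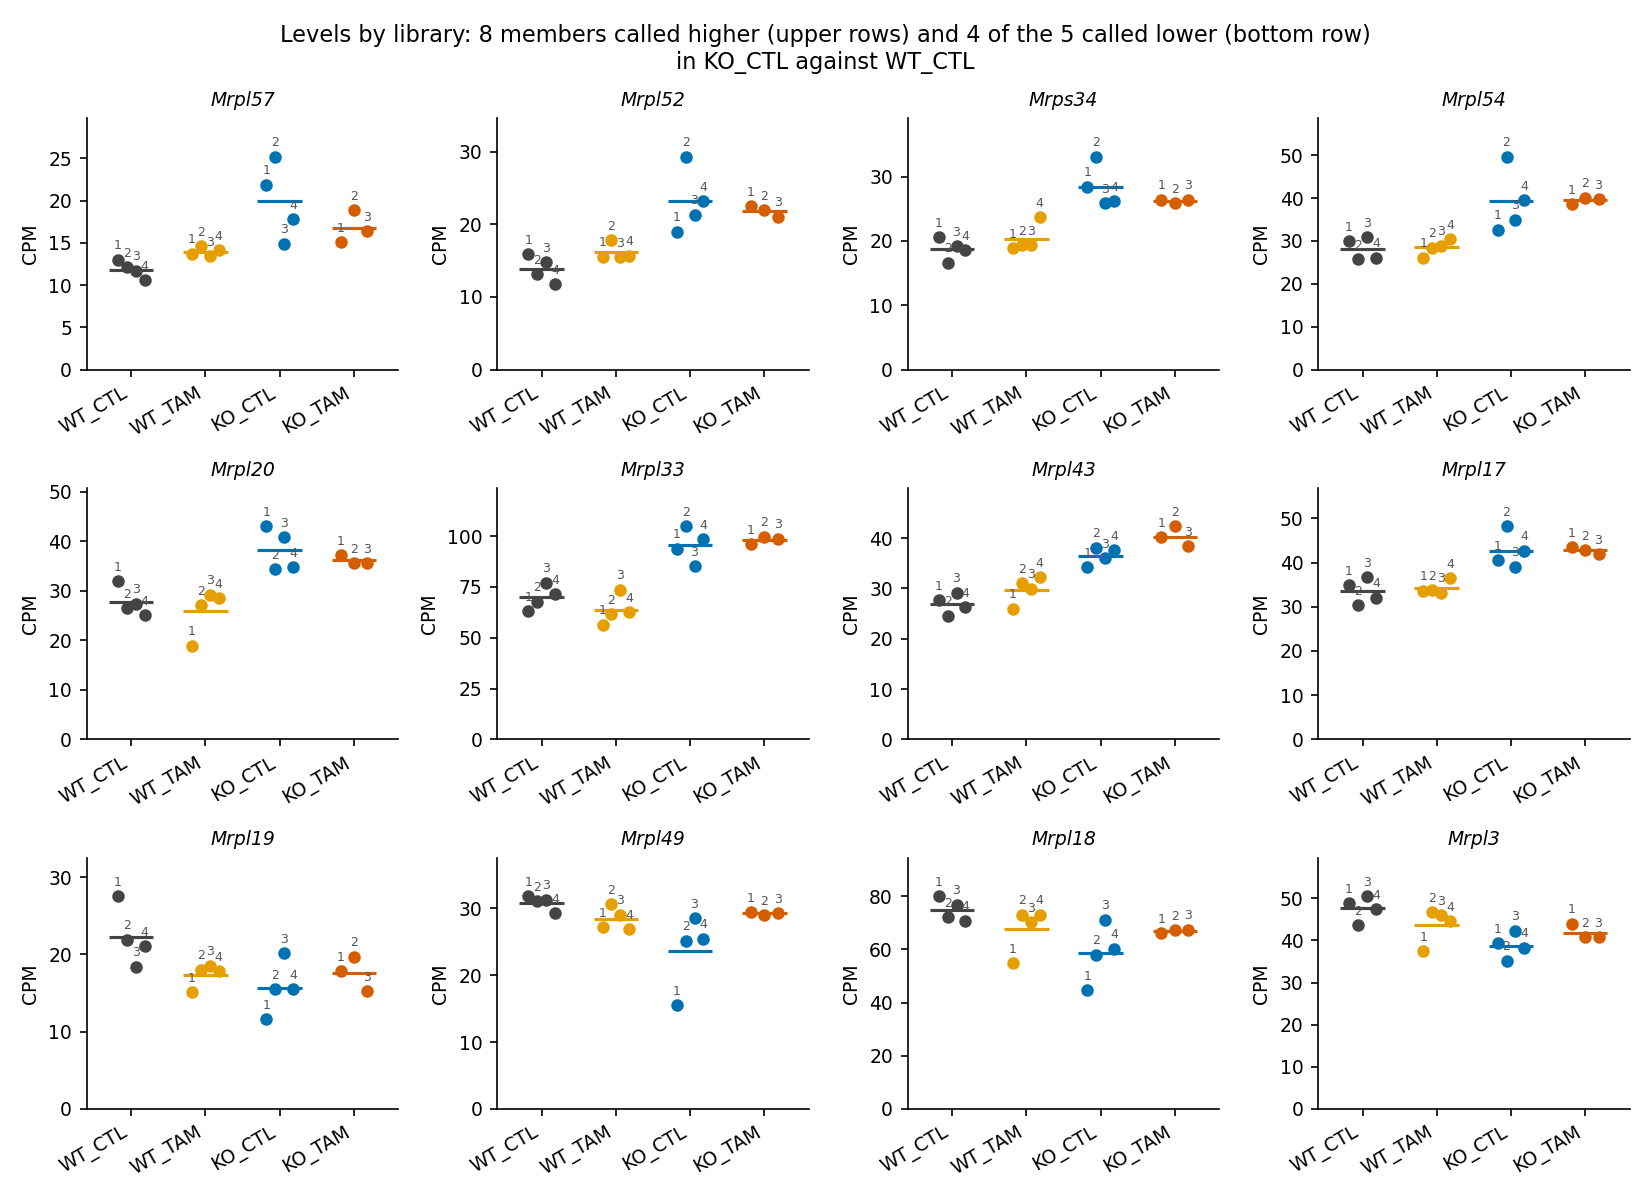
Levels in CPM (linear axes from 0) of the 8 members called higher in all 26 alternative fits, in the upper rows, and of 4 of the 5 called lower, in the bottom row. Points are libraries numbered by replicate and lines are group means. In the upper rows every KO_CTL library lies above every WT_CTL library, and in the bottom row KO_CTL replicate 1 is the lowest of its group for *Mrpl19*, *Mrpl49* and *Mrpl18*.

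The 5 members that fell all belong to the large subunit. *Mrpl19*, whose bacterial counterpart sits at the interface of the subunits, measured 27.5, 21.9, 18.4 and 21.1 CPM in WT_CTL and 11.6, 15.5, 20.2 and 15.5 in KO_CTL. KO_CTL replicate 3 lay within the WT_CTL range. The log2 fold change was -0.51 ± 0.15 (0.70-fold, edgeR adjusted p = 0.0216).

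*Mrpl49*, specific to mitochondria, went from 31.8, 31.0, 31.3 and 29.2 CPM to 15.5, 25.1, 28.5 and 25.4. All KO_CTL libraries were below all WT_CTL libraries, replicate 1 by far the most. The log2 fold change of -0.38 ± 0.13 passed narrowly (edgeR adjusted p = 0.0405). *Mrpl3*, which reaches toward the site of peptide bond formation, was below in every KO_CTL library (35.2 to 42.3 CPM against 43.6 to 50.5), with a log2 fold change of -0.30 ± 0.09 (edgeR adjusted p = 0.0181). *Mrpl3* shares exons on the same strand with *Gm38077* (40 to 108 counts, against 830 to 1989 for *Mrpl3*).

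*Mrpl1*, the protein of the mobile stalk beside the exit site for transfer RNA, had a log2 fold change of -0.36 ± 0.12 (edgeR adjusted p = 0.0331), and *Mrpl18*, which in bacteria binds the small ribosomal RNA of the large subunit, one of -0.36 ± 0.12 (edgeR adjusted p = 0.0378). In both, only KO_CTL replicate 3 reached the WT_CTL range (34.7 CPM against 33.6 to 37.0, and 71.2 against 70.8 to 80.0). *Mrpl49*, *Mrpl18* and *Mrpl1* were lost in 11, 10 and 9 of 26 alternatives, *Mrpl3* in 4 and *Mrpl19* in 3. Without KO_CTL replicate 1, the lowest library for most of them, *Mrpl19* had -0.39 (edgeR adjusted p = 0.0501), *Mrpl1* -0.27 (0.0786) and *Mrpl18* -0.25 (0.0843), which did not pass, and *Mrpl49* had -0.23 (0.0311). The number of falls turned on single libraries. It was 1 without WT_CTL replicate 1, WT_CTL replicate 3 or KO_CTL replicate 2, 2 without KO_CTL replicate 1, 3 without WT_CTL replicate 2, WT_CTL replicate 4 or KO_CTL replicate 4, 12 without KO_CTL replicate 3 and 11 without WT_TAM replicate 1, which enters through the shared estimate of the spread. The number of rises was 8 to 14 with a library left out. The calls over all tested genes were 3693 to 5116 in these fits, against 4727 in the main fit.

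**Figure D3:**
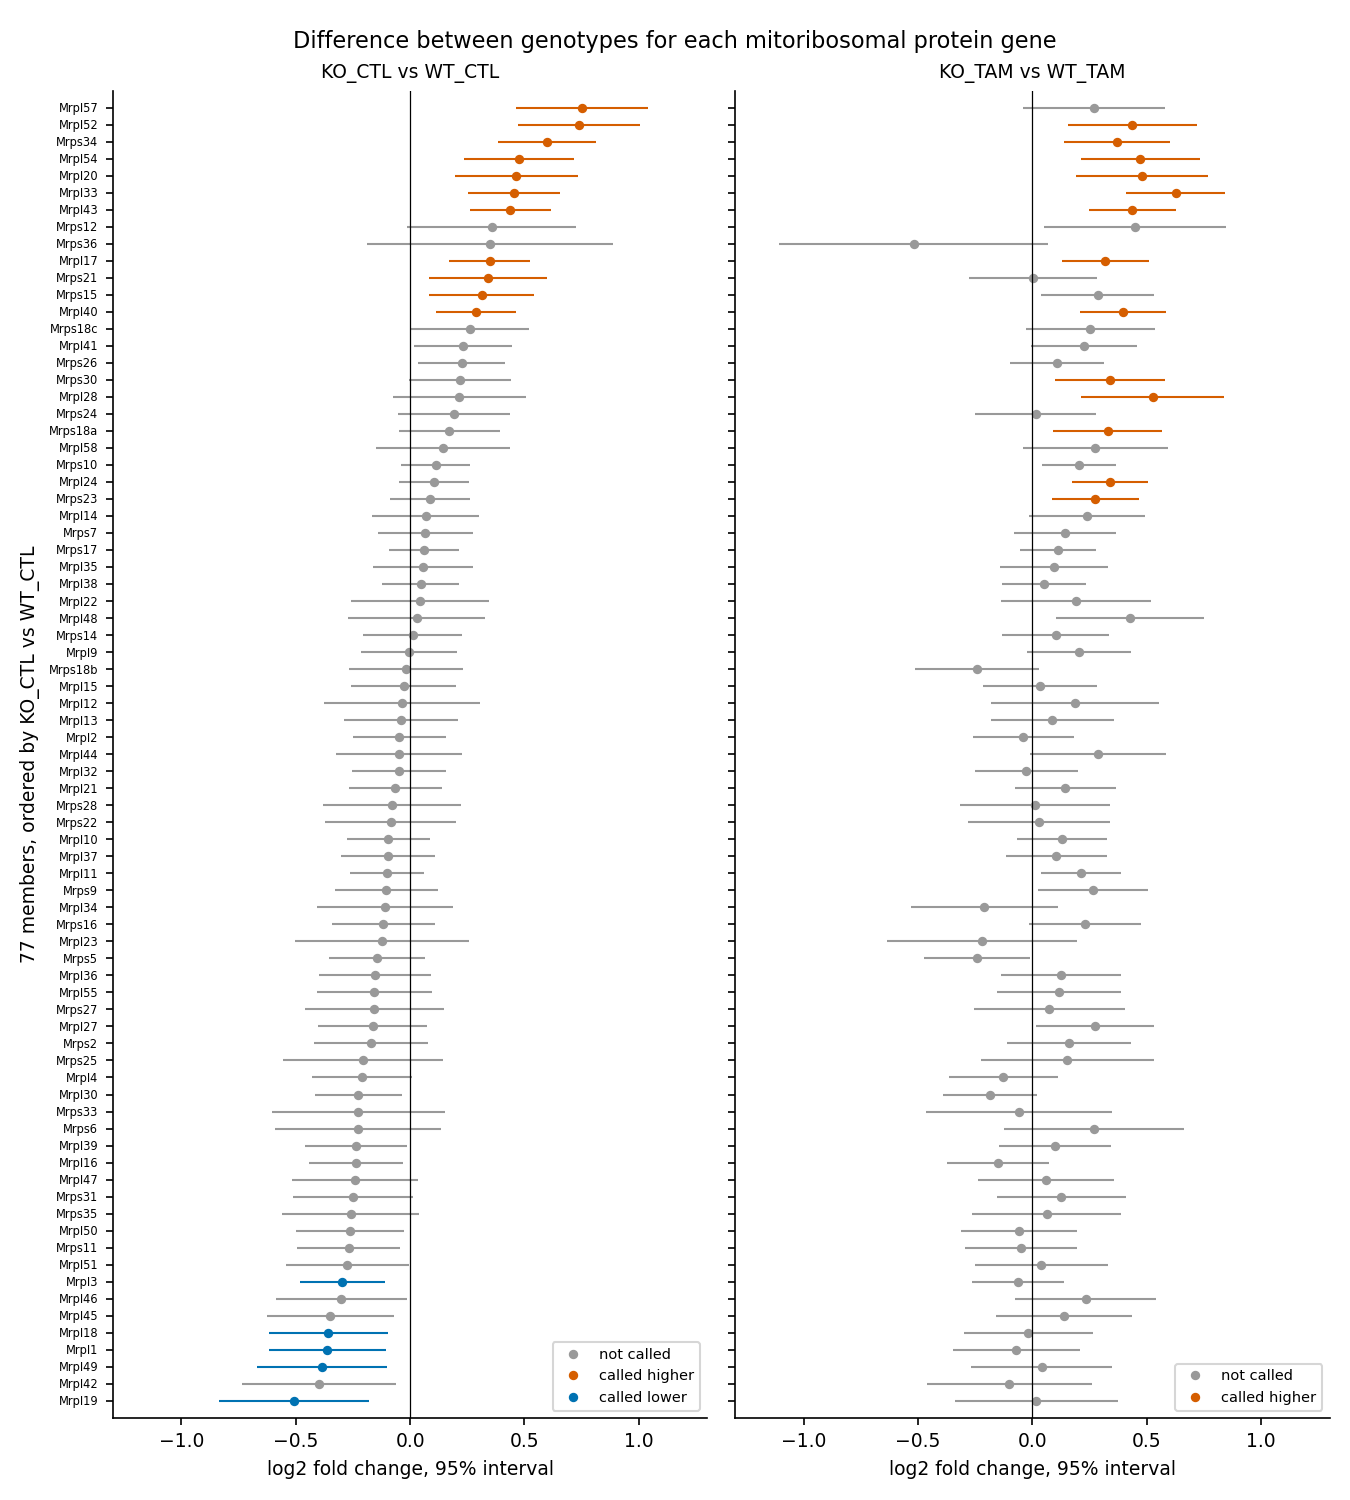
Log2 fold change (points) with 95% interval (lines) for the 77 tested members, ordered by KO_CTL against WT_CTL on the left and in the same order for KO_TAM against WT_TAM on the right. Orange marks members called higher and blue members called lower at an edgeR adjusted p under 0.05. On the left 11 are higher and 5 lower, and on the right 13 are higher and 0 lower.

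By class, the 50 tested large-subunit members gave 8 rises and 5 falls and the 26 of the small subunit 3 rises and 0 falls, both with a median log2 fold change of -0.05, where 15.5% of all tested genes rose and 14.9% fell. Members with a bacterial counterpart (48) gave 5 rises and 4 falls, and those specific to mitochondria (28) 6 rises and 1 fall. The members called higher had short coding sequences, with a median of 447 bases (261 to 774, n = 11), against 876 bases (498 to 1044, n = 5) for those called lower and 603 bases (276 to 1326, n = 61) for the rest. The tested protein-coding genes had the same order, with 1212 bases for those called higher, 1539 for those called lower and 1410 for all. Over the 77 members the log2 fold change went down with the log2 coding length (Pearson r = -0.35, Spearman rho = -0.28), and over 13437 tested protein-coding genes the correlation was closer to 0 (r = -0.08, rho = -0.10). With the GC content of the transcript it was r = 0.20 for the members and r = 0.15 for the protein-coding genes. Between KO_TAM and WT_TAM the correlation with coding length was r = -0.08 for the members and r = -0.15 for the protein-coding genes. Between KO_TAM and KO_CTL it was r = 0.13 and r = -0.08. Between WT_TAM and WT_CTL, which shares the WT_CTL libraries with the first comparison, it was r = -0.45 for the members and r = 0.03 for the protein-coding genes, and in the interaction r = 0.34 and r = -0.07. These correlations run across genes of the same libraries, which are not independent replicates.

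**Figure D4:**
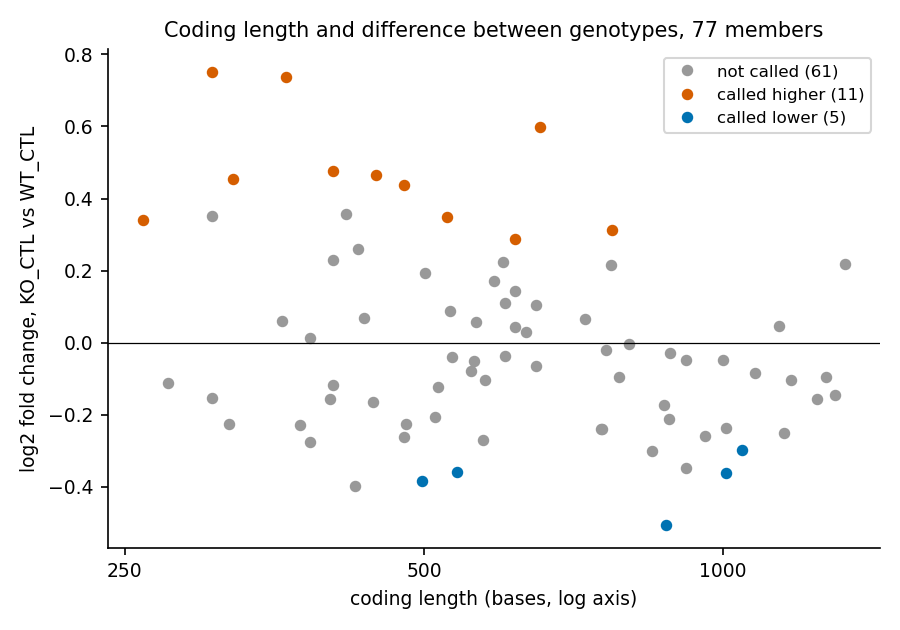
Log2 fold change between KO_CTL and WT_CTL against the coding length (log axis) of the longest coding transcript for the 77 tested members, coloured by call. The 11 members called higher lie between 261 and 774 bases, and the 5 called lower between 498 and 1044 bases.

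The starts of these genes were read to describe their sequence. Promoter windows from RefSeq (GRCm38.p6, 250 bases before to 50 after the start) covered 69 of the 78 members in 75 windows. Nuclear genes for mitochondrial proteins are known for sites of the activators NRF1, GABPA and YY1, so the cores GCGCANGCG (NRF1), CCGGAAG (GABPA) and AAGATGGC (YY1) were searched on both strands. The last letters of the GABPA core, AAG, are also the first of the YY1 core, so a match of each can share them. The NRF1 core was in 21.3% of member windows and 6.25% of all 32851 windows, the GABPA core in 34.7% and 8.86%, and the YY1 core in 16.0% and 2.75%. Of the 9 windows of members called higher 3 held the NRF1 core, 6 the GABPA core and 0 the YY1 core, and of the 4 windows of members called lower these counts were 0, 2 and 1. The 250 bases before the start follow for 4 members that rose in all 26 alternative fits and whose window holds a core there. Since these 4 were picked for holding a core, its presence in them is no result, and the other members that rose are not shown. Their positions are chr14:57825989-57826238 on the plus strand for *Mrpl57*, chr14:54426659-54426908 on the plus strand for *Mrpl52*, chr19:45006443-45006692 on the minus strand for *Mrpl43* and chr7:105811088-105811337 on the minus strand for *Mrpl17*. Letters run 5′ to 3′ in the direction of the gene, and capitals mark the cores on either strand, whose first base lies, counted from the start, at -57 in *Mrpl57* (NRF1), at -47 in *Mrpl52* (GABPA), at -56 and -12 in *Mrpl43* (GABPA), and at -237 (GABPA), -49 and -11 (NRF1) in *Mrpl17*.
Mrpl57: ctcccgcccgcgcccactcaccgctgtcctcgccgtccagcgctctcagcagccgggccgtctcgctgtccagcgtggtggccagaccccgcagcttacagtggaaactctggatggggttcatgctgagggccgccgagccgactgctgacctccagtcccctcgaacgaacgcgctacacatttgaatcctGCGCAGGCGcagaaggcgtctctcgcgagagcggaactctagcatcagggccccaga
Mrpl52: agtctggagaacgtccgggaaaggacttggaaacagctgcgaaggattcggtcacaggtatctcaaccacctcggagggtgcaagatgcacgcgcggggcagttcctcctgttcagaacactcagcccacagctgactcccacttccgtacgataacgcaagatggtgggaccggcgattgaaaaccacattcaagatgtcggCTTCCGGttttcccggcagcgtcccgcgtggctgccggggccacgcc
Mrpl43: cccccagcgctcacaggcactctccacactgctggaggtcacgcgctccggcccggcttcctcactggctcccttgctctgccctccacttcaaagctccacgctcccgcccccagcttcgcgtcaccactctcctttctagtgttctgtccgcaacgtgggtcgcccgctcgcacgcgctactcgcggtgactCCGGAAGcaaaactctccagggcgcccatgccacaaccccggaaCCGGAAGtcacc
Mrpl17: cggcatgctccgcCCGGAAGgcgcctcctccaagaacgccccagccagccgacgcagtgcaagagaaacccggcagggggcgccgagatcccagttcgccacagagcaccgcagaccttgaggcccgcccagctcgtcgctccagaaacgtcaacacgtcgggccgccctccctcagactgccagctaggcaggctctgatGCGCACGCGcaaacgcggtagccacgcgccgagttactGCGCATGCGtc

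The 2 of the 5 members that fell whose KO_CTL libraries all lay below WT_CTL are shown too, at chr19:6057756-6058005 on the minus strand for *Mrpl49* and chr9:105053018-105053267 on the plus strand for *Mrpl3*. They were picked by their levels and not for a core, so no contrast with the members shown above can be drawn. *Mrpl3* holds the GABPA core at -19, and *Mrpl49* holds none of the 3 cores in these letters. A match is a stretch of letters and was not tested as a binding site.
Mrpl49: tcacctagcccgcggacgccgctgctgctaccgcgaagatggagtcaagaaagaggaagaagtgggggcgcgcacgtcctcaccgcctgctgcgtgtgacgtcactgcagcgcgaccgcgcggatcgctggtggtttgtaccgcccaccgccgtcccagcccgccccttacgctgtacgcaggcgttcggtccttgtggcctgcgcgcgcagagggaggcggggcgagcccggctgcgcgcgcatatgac
Mrpl3: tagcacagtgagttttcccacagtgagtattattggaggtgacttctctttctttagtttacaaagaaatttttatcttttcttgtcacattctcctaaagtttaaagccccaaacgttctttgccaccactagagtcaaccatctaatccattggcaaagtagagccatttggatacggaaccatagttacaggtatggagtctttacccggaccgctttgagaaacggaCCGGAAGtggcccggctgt

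Under tamoxifen the difference between genotypes leaned upward. Between KO_TAM and WT_TAM, 13 of 77 members rose (16.9%, against 10.6% of all tested genes) and 0 fell (against 9.46%). The 0 falls were also found with DESeq2 and limma-voom. An unadjusted p under 0.05 in edgeR was found for 21 of 77 members and for 5241 of all 15533 tested genes. The median log2 fold change was 0.13 (quartiles 0.01 and 0.27), and that of all tested genes -0.02. For 28 members all 3 KO_TAM libraries lay above all 4 WT_TAM libraries (36.4%, against 17.2% of all tested genes), and for 1 below (1.3%, against 14.4%). WT_TAM replicate 1, the lowest of its group for 68 members, bears on this comparison. Without it the median was 0.05 and 8 members were called, all higher and all among the 13. The count was 6, 4 and 6 without replicates 1, 2 and 3 of KO_TAM, 7 without WT_TAM replicate 3 and 21 without KO_CTL replicate 1. In the same order the calls over all tested genes were 2119, 1656, 2121, 2246 and 4097. They were 3339 without WT_TAM replicate 1 and 3121 in the main fit. Without both libraries that stood apart it was 15 higher and 4 lower, so the count of 0 falls did not hold without them. Without scaling factors 31 members were called higher and 0 lower. The calls over all tested genes were 4600 without both libraries and 3468 without scaling factors.

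Of the 13 members, 8 were also among the 11 that rose without the drug, a comparison that shares no library with this one. Both comparisons come from the same fit, with a shared estimate of the spread. The matching count over all tested genes was not taken, so the 8 are not a result about the members as a family. *Mrpl33* was the highest, with 56.5, 61.6, 73.7 and 62.7 CPM in WT_TAM against 96.1, 99.7 and 98.8 in KO_TAM. The groups were far apart, and the log2 fold change was 0.63 ± 0.10 (edgeR adjusted p = 0.00075). *Mrpl20* had a log2 fold change of 0.48 ± 0.14 (edgeR adjusted p = 0.0222), *Mrpl54* 0.47 ± 0.12 (0.0138), *Mrpl52* 0.44 ± 0.13 (0.0308), *Mrpl43* 0.44 ± 0.09 (0.0036), *Mrpl40* 0.40 ± 0.09 (0.00643), *Mrps34* 0.37 ± 0.11 (0.0259) and *Mrpl17* 0.32 ± 0.09 (0.0206). Of these, *Mrpl52* and *Mrps34* were each lost in 7 of 26 alternatives, *Mrpl20* in 4, the replicate block among them, and *Mrpl54* in 1. The alternatives were not read for *Mrpl17*, so how far its call holds is not known. Without WT_TAM replicate 1 *Mrpl52* had 0.42 (edgeR adjusted p = 0.0525) and *Mrps34* 0.33 (0.0529). *Mrpl57*, the largest rise without the drug, measured 13.7, 14.6, 13.4 and 14.1 CPM in WT_TAM and 15.1, 18.9 and 16.4 in KO_TAM. These values did not overlap either, but the log2 fold change of 0.27 ± 0.15 did not pass (edgeR adjusted p = 0.214).

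The other 5 members called higher were not called without the drug. *Mrpl28*, counterpart of a bacterial large-subunit protein, measured 40.9, 54.7, 54.1 and 54.6 CPM in WT_TAM and 70.1, 76.6 and 73.7 in KO_TAM. WT_TAM replicate 1 was the lowest, and the other 3 were also below every KO_TAM library. The log2 fold change was 0.53 ± 0.15 (edgeR adjusted p = 0.0205), and 0.43 (0.0438) without WT_TAM replicate 1. The call was lost in 2 of 26 alternatives, without KO_TAM replicate 2 and without KO_TAM replicate 3. *Mrpl24*, a protein at the exit tunnel, had 0.34 ± 0.08 (edgeR adjusted p = 0.00702), and *Mrps30*, which sits in the large subunit in spite of its name, 0.34 ± 0.11 (edgeR adjusted p = 0.046, lost in 14 of 26 alternatives, 0.30 and 0.0888 without WT_TAM replicate 1). *Mrps18a* had 0.33 ± 0.11 (edgeR adjusted p = 0.0495), and *Mrps23*, like *Mrpl17* outside the 10 highest of this comparison and chosen after its values were seen, 0.28 ± 0.09 (edgeR adjusted p = 0.0389). The alternatives were not read for *Mrps18a*, *Mrps23* and *Mrpl17* in this comparison. Not all of them were still called without WT_TAM replicate 1. Whether these 5 differ between the drug conditions is the interaction test, which called none of them.

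The 5 members that fell without the drug had log2 fold changes between -0.07 and 0.04 between KO_TAM and WT_TAM, and 0 of them were called. Their intervals were wide. For *Mrpl19* it ran from -0.34 to 0.37 around 0.02, and for *Mrpl49* from -0.27 to 0.35 around 0.04. Across the 77 members the log2 fold changes of the 2 genotype comparisons had a Pearson r of 0.54 (Spearman rho = 0.59), with the same sign in 47. Across all 15533 tested genes r was 0.72 (rho = 0.62), with the same sign in 11397.

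Tamoxifen in mutant muscle called 0 members. Between KO_TAM and KO_CTL edgeR called 0 of 77 in each direction (against 0.0129% of all tested genes higher and 0% lower), and DESeq2 and limma-voom also 0. An unadjusted p under 0.05 in edgeR was found for 2 of 77 members and for 861 of all 15533 tested genes. The median log2 fold change was 0.08, with 55 members above 0 and 22 below. That of all tested genes was 0.00, with 7670 above 0 and 7862 below. Without KO_CTL replicate 1, the lowest of its group for 52 members, the members' median was 0.03. In 6 members all KO_TAM libraries lay above all KO_CTL libraries (7.79%, against 3.34% of all tested genes) and in 0 below (against 2.38%).

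The 3 highest and 3 lowest values of this comparison show its size. *Mrpl46*, in the central protuberance of the large subunit, measured 17.3, 21.1, 24.8 and 22.0 CPM in KO_CTL and 28.3, 26.5 and 26.3 in KO_TAM. The treated libraries were all above, with a log2 fold change of 0.34 ± 0.14 (edgeR adjusted p = 0.855). *Mrpl49*, low in KO_CTL, measured 29.4, 29.0 and 29.2 CPM in KO_TAM, above all 4 KO_CTL libraries and near the 29.2 to 31.8 of WT_CTL. Its log2 fold change from KO_CTL to KO_TAM was 0.31 ± 0.14 (edgeR adjusted p = 0.855), and 0.15 without KO_CTL replicate 1. *Mrps25* had 0.27 ± 0.18, *Mrps18b* -0.16 ± 0.13, *Mrpl57* -0.24 ± 0.15 and *Mrps36* -0.35 ± 0.28 (edgeR adjusted p = 0.859 to 0.878 for these 4). These values moved with single libraries. *Mrps25* had 0.08 without KO_CTL replicate 1, *Mrps18b* -0.09 without KO_TAM replicate 2, *Mrpl57* -0.11 without KO_CTL replicate 2 and *Mrps36* -0.12 without KO_CTL replicate 3.

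In wild-type muscle tamoxifen called 0 members as well. Between WT_TAM and WT_CTL the shares of all tested genes called were 0.18% higher and 0.129% lower, against 0 of 77 members in each direction with edgeR, DESeq2 and limma-voom. An unadjusted p under 0.05 in edgeR was found for 6 of 77 members and for 1756 of all 15533 tested genes. The median log2 fold change was -0.09, with 57 members below 0 and 20 above, and it was -0.01 without WT_TAM replicate 1. That of all tested genes was 0.00, with 7702 below 0 and 7828 above. All WT_TAM libraries were above WT_CTL in 1 member (1.3%, against 4.22% of all tested genes) and below in 5 (6.49%, against 3.86%). The 3 highest log2 fold changes were 0.52 ± 0.25 for *Mrps36*, 0.24 ± 0.14 for *Mrpl57* and 0.22 ± 0.12 for *Mrps21*, and the 3 lowest -0.31 ± 0.12 for *Mrps2*, -0.35 ± 0.13 for *Mrpl45* and -0.36 ± 0.15 for *Mrpl19* (edgeR adjusted p = 0.307 to 0.546 for these 6). Without WT_CTL replicate 1 *Mrpl19* had -0.23. *Mrpl45*, which links the mitochondrial ribosome to the inner membrane, measured 77.6, 68.4, 69.5 and 62.6 CPM in WT_CTL and 41.1, 57.4, 59.7 and 60.5 in WT_TAM. All 4 treated libraries were lower, replicate 1 by the most.

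Whether the effect of tamoxifen depended on the genotype was tested as the interaction, the change from KO_CTL to KO_TAM minus that from WT_CTL to WT_TAM. It called 0 of 77 members in each direction (0% and 0% of all tested genes) with edgeR, and 0 with DESeq2 and limma-voom. An unadjusted p under 0.05 in edgeR was found for 12 of 77 members and for 1650 of all 15533 tested genes. The median was 0.16 on the log2 scale for the members and -0.01 for all tested genes. Above 0 were 60 of 77 members and 7643 of all 15533 tested genes. Without WT_TAM replicate 1 the members' median was 0.08, and without both libraries that stood apart 0.04. The highest values were 0.53 ± 0.20 for *Mrpl46*, 0.52 ± 0.23 for *Mrpl19* and 0.50 ± 0.25 for *Mrps6*, and the lowest -0.34 ± 0.18 for *Mrps21*, -0.48 ± 0.20 for *Mrpl57* and -0.87 ± 0.37 for *Mrps36* (edgeR adjusted p = 0.406 to 0.52 for these 6). *Mrps6* had 0.31 without KO_CTL replicate 1, and shares exons on the same strand with *Slc5a3* (28 to 183 counts, against 128 to 360 for *Mrps6*).

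The 3 paralogues of *Mrps18* encode proteins at different places of the ribosome, *Mrps18a* in the large subunit and *Mrps18b* and *Mrps18c* in the small one. Their levels differed, with 46.1 to 56.9 CPM for *Mrps18a*, 11.5 to 16.4 for *Mrps18b* and 11.3 to 13.0 for *Mrps18c* in WT_CTL. Between KO_CTL and WT_CTL their log2 fold changes were 0.17 ± 0.10, -0.02 ± 0.12 and 0.26 ± 0.12 (edgeR adjusted p = 0.23, 0.917 and 0.121). Between KO_TAM and WT_TAM *Mrps18b* had -0.24 ± 0.13 (edgeR adjusted p = 0.197) and *Mrps18c* 0.25 ± 0.13 (edgeR adjusted p = 0.193). *Mrps18c* shares exons with *Gm43511*, which had at most 6 counts.

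*Mrpl58*, a peptidyl-tRNA hydrolase that became part of the large subunit and frees stalled chains, had log2 fold changes of 0.14 ± 0.14 without the drug and 0.28 ± 0.15 with it (edgeR adjusted p = 0.461 and 0.21). *Mrpl12* measured 143, 111, 135 and 116 CPM in WT_CTL, 82.4, 134, 131 and 142 in WT_TAM, 93.3, 134, 140 and 125 in KO_CTL and 128, 153 and 137 in KO_TAM. The lowest values of WT_TAM and KO_CTL were those of replicate 1, the groups overlapped throughout, and the log2 fold change between KO_CTL and WT_CTL was -0.04 ± 0.16 (95% interval -0.38 to 0.31, edgeR adjusted p = 0.887).

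The other genes of the pathway were read from lists, beside the 15.5% of all tested genes that rose and the 14.9% that fell. Between KO_CTL and WT_CTL, the 5 mitoribosomal proteins with other symbols had 0 rises and 1 fall, *Ptcd3* (-0.54 ± 0.16, edgeR adjusted p = 0.02), and a median log2 fold change of -0.03, close to that of the members. Of 30 genes for assembly of the mitochondrial ribosome and maturation of its RNA 2 rose and 7 fell (median -0.15), from *Mpv17l2* at 0.51 ± 0.11 (edgeR adjusted p = 0.00263) to *Gtpbp10*, a GTPase of large-subunit assembly, at -0.52 ± 0.13 (edgeR adjusted p = 0.00865). Of 14 mitochondrial translation factors 0 rose and 6 fell (median -0.26), with *Taco1*, an activator of the synthesis of a cytochrome oxidase subunit, at -0.78 ± 0.23 (edgeR adjusted p = 0.018). Of 22 genes for charging mitochondrial tRNA, which are aminoacyl-tRNA synthetases and the amidotransferase subunits *Qrsl1*, *Gatb* and *Gatc*, 1 rose and 9 fell (median -0.25), *Qrsl1* and *Gatc* among the latter (named after their values were seen). The riser was *Kars* (0.55 ± 0.08, edgeR adjusted p = 0.000145), which also charges tRNA in the cytosol, and the lowest *Wars2* (-0.69 ± 0.16, edgeR adjusted p = 0.00505).

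The messenger RNAs that this ribosome reads were lower. Of 12 listed mRNAs of the mitochondrial genome 7 passed the filter, and these 7 fell, with log2 fold changes from -0.67 (*mt-Co1*, 19410 CPM on average in WT_CTL and 12220 in KO_CTL) to -0.91 (*mt-Nd6*) and a median of -0.78. The sum of the 12 was 79070 to 87490 CPM in WT_CTL, 55790 to 100200 in WT_TAM, 43830 to 62710 in KO_CTL and 43810 to 54370 in KO_TAM. Of 20 other nuclear genes for mitochondrial proteins 3 rose and 8 fell (median -0.25), from *Phb2* at 0.37 ± 0.11 (edgeR adjusted p = 0.0208) to *Sdha* at -0.64 ± 0.15 (edgeR adjusted p = 0.00555). Of 76 tested genes for proteins of the cytosolic ribosome 36 rose and 1, *Rpl15*, fell (-0.59 ± 0.09, edgeR adjusted p = 0.000381), with a median of 0.40. Many of these genes have processed copies in the genome, so that reads may have been split or left out.

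The same lists were read under the drug. Between KO_TAM and WT_TAM the medians were 0.13 for the mitoribosomal proteins with other symbols, 0.09 for assembly, -0.03 for translation factors, 0.03 for tRNA charging, -0.66 for the mRNAs of the mitochondrial genome, 0.16 for the cytosolic ribosome and -0.17 for the other mitochondrial genes. Calls were 1 higher and 0 lower of 5, 3 and 1 of 30, 1 and 0 of 14, 2 and 5 of 22, 0 and 6 of 7, 14 and 0 of 76, and 2 and 0 of 20 in this order, where 10.6% of all tested genes were higher and 9.46% lower. The difference between the drug conditions was not called for any gene of these lists in the interaction test.

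**Figure D5:**
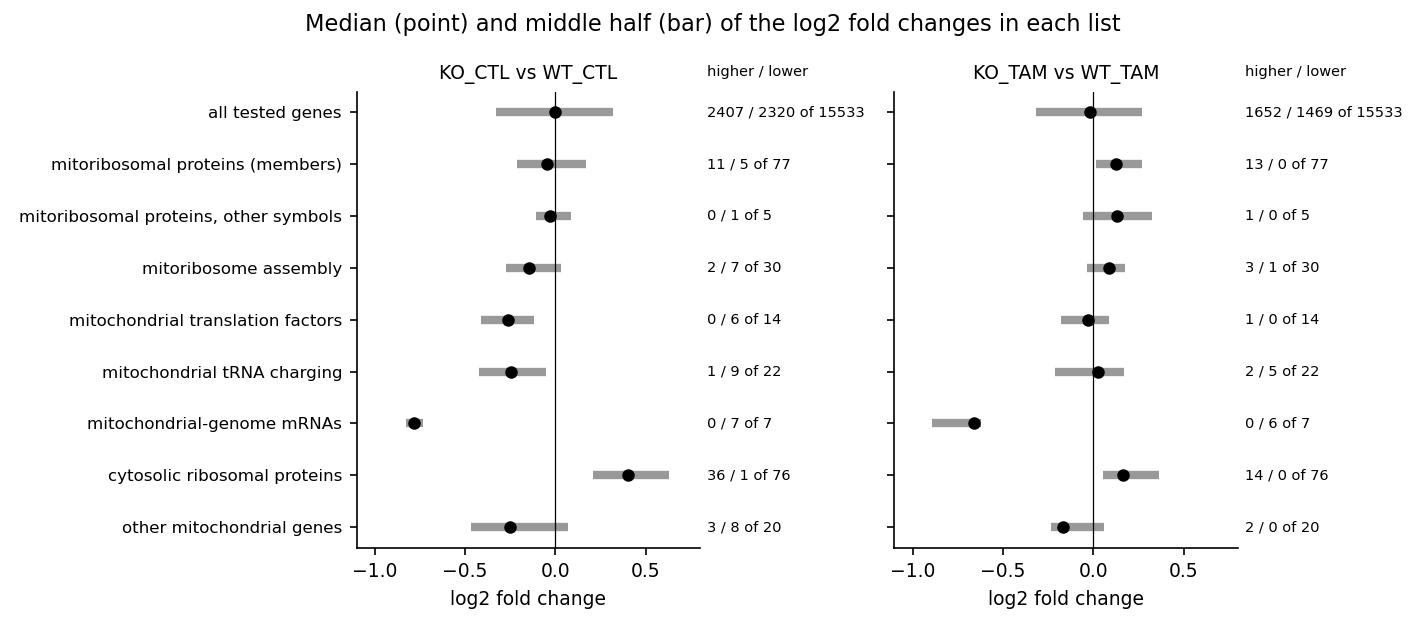
Median (points) and span between the quartiles (bars) of the log2 fold changes of the tested genes in each list, for KO_CTL against WT_CTL (left) and KO_TAM against WT_TAM (right), with the numbers called higher and lower beside each. The members' median is -0.05 on the left and 0.13 on the right, between that of the mRNAs of the mitochondrial genome (-0.78 and -0.66) and that of the cytosolic ribosomal proteins (0.40 and 0.16).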

How the data were processed

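The 15 messenger RNA libraries (TruSeq stranded kit) of tibialis anterior were analysed from the deposited table of raw counts per Ensembl gene, which the authors did not normalize. According to the submitters' processing notes, the tools were HTSeq 0.6.1p1, STAR 2.5.3a, Bowtie2 2.2.8 and cutadapt 1.10, with GRCm38 and mm10 as builds. Which annotation they counted on, the strand setting and how tamoxifen was dosed are items that the sources used here do not give. Exons of 27 of the 78 members overlap a gene on the opposite strand, so how reads there were counted is not known. Among them are the called members *Mrpl43*, *Mrps34*, *Mrpl18*, *Mrpl19*, *Mrpl49*, *Mrpl24* and *Mrps30*. All 30672 identifiers matched GENCODE release M21. Total counts were 18042558 to 45823277 per library, and limits from a count of 0 cover counting error only.

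Counts were fitted with edgeR 4.0.16 in R 4.3.3 (filterByExpr with minimum count 10, TMM factors, glmQLFit with robust spread, 4 group means over all 15 libraries, 11 residual degrees of freedom) and contrasts tested with glmQLFTest, two-sided. A gene was called at a Benjamini-Hochberg adjusted p under 0.05 over all 15533 tested genes. Standard errors and 95% intervals come from the same fit. CPM values are scaled by library total and TMM factor, and TPM values use the union of a gene's exons. The code was tested on simulated data. Named members were, between genotypes, up to 10 called in each direction, for tamoxifen and the interaction the 3 highest and 3 lowest, the 5 highest and 5 lowest by TPM in WT_CTL, and a fixed set (*Mrps18a*, *Mrps18b*, *Mrps18c*, *Mrpl58*, *Mrpl12*, *Mrps36*, *Mrps30* and *Mrpl53*). Of each other list the highest and lowest called gene could be named. Members, lists and alternatives were chosen with earlier results of these data known. The alternatives were other scaling factors, filters, tools and sets of libraries, a replicate block and, chosen after seeing the data, no scaling factor. DESeq2 1.42.0 and limma 3.58.1 were used among them. No list was tested as a set, and proteins were not analysed here.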

Additional observations from a re-analysis of the deposited data

Results flagged for a closer look

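Single libraries far from the rest of their group were searched for in the named members and in the members' summed level, with Dixon's ratio in the groups of 4 libraries against its 95% critical value. Of 111 groups of values tested 11 had such a library, and chance gives about 1 in 20 for independent groups. These groups share the same libraries, and most of the members were named by their values in these data. The 11 can therefore not be read against that rate. WT_TAM replicate 1 was the lowest by this measure in 5 members, with 54.7 CPM for *Mrpl18* (next library 70.3), 40.9 for *Mrpl28* (54.1), 41.1 for *Mrpl45* (57.4), 20.1 for *Mrpl58* (28.1) and 36.8 for *Mrps18a* (48.2). KO_CTL replicate 1 was the lowest in 2 members, with 26.3 CPM for *Mrps21* (next library 35.9) and 12.8 for *Mrps25* (24.6). Of the others, WT_CTL replicate 4 was low for *Mrpl1* (33.6 CPM, next 36.5), WT_CTL replicate 3 high for *Mrpl28* (61.3, next 54.4), WT_TAM replicate 2 high for *Mrpl52* (17.8, next 15.7) and WT_TAM replicate 4 high for *Mrps34* (23.7, next 19.4). The summed level of the members was not among the 11.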

How the results depend on the processing

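Alternatives were run for 43 of the named members' differences, and 0 of these changed sign. The count of members called between KO_CTL and WT_CTL (16) was 9 with no filter on low counts, 10 with only these groups fitted, 0 with an absolute log2 fold change over 1 also required, and 10 to 24 with a library left out. Between KO_TAM and WT_TAM (13) it was 8 with no filter, 0 with the fold threshold, 31 without scaling factors and 4 to 21 with a library left out. Without both libraries that stood apart the counts were 22 (15 higher and 7 lower) and 19 (15 higher and 4 lower). Between KO_CTL and WT_CTL all tested genes gave 4727 calls, 3939 with no filter and 3987 with only these groups fitted. With a library left out they gave 3693 to 5116. Between KO_TAM and WT_TAM they gave 3121 calls, 2402 with no filter and 1656 to 4097 with a library left out. With the fold threshold they gave 1536 and 934. Whether the replicate numbers pair the libraries was not settled. Of 21 same-numbered pairs from different groups, 6 deviated together (correlation over 0.1) and 1 oppositely (under -0.1), with a median of -0.004. Of 63 pairs with unlike numbers these counts were 10 and 13, with a median of -0.013. The highest correlation, 0.306, was that of KO_CTL replicate 2 with KO_TAM replicate 2. With a replicate block the counts were 15 and 10. The counts of 0 for tamoxifen and the interaction held in every alternative that was run. Only the absence of scaling factors moved a median by more than the spread between libraries (0.132), to 0.10 between KO_CTL and WT_CTL and to 0.29 between KO_TAM and WT_TAM, against 0.15 and 0.14 for all tested genes, and the cause was not tested. An interaction cannot be computed from 2 groups, so it has no value there. *Mrpl53* did not pass the count filter and was not tested.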
